A study of Saccharomyces cerevisiae with 24 samples.

Results

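The genes described here encode the small subunit of the mitochondrial ribosome of *Saccharomyces cerevisiae*. They were taken by name and not by their ratios, as 32 genes among the 6307 ORFs spotted on the arrays. The array's own gene name gave 14 of them, and the current standard name of the spotted ORF in the R64 gene table gave the other 18. By the role of the protein they fall into 18 relatives of bacterial small-subunit proteins, 11 proteins particular to mitochondria, and 3 genes listed with the subunit whose products have another known activity.

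Mitochondria keep a small genome that encodes core subunits of the respiratory chain and of ATP synthase, and a dedicated ribosome inside the organelle translates its messages. In yeast nearly all proteins of that ribosome are encoded in the nucleus, transcribed by RNA polymerase II, made in the cytoplasm and imported. Mediator is the large coactivator that links DNA-bound regulators to RNA polymerase II, and Med20 is a subunit of its head module.

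The wild-type strain was BY4741 (Mat a, *ura3Δ0 leu2Δ0 his3Δ1 met15Δ0*), and each deletion strain was isogenic with the named gene replaced by a *kanR* cassette. Poly(A)+ RNA from a pair of cultures was labeled with Cy3 and Cy5 and hybridized to 2 arrays with the dyes reversed, so that 24 arrays give 12 comparisons. In the rapamycin experiment cultures of *med20Δ* and wild type in YPD (30°C, A600 near 0.2) received rapamycin, an inhibitor of TOR kinase, at 0.2 µg/ml for 1 h or were kept without it (with the drug vehicle per the methods, called untreated here), and 4 comparisons connect these cultures. In 5 more, *med20Δ* was set against wild type under chlorpromazine for 1 h (250 µM per the methods, while the labels write the unit as mM), tunicamycin at 2.5 µg/ml for 90 min, hydrogen peroxide at 0.32 mM for 30 min, a shift from 29 to 39°C for 20 min, or post-diauxic growth (48 h at 30°C from an OD600 of 0.01). The last 3 set *med16Δ* (tail module), *med31Δ* (middle module) and *cycCΔ* (Cdk module; the gene is *SSN8*) against wild type after rapamycin. The study began with a screen for genetic interactions of *MAF1*, a repressor gene of RNA polymerase III transcription, which found *MED20*. Its arrays examined the part of Mediator subunits in repression of ribosomal protein genes, beside northern blots and growth tests. Nothing in the sources used here says that the 2 arrays of a pair hold separate cultures, so a pair was counted once. With 1 such pair per comparison there is no test between samples, and a value is the mean log2 ratio of the pair with each array beside it.

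In every comparison between strains the deleted gene gave a ratio below 0 on both arrays. For *MED20* the mean log2 ratio in *med20Δ* was between -0.89 and -0.26 over 7 conditions. It was -0.67 for *MED16*, -1.05 for *MED31* and -0.88 for *SSN8*. Between 65.3% and 96.4% of ORF spots exceeded the 95th percentile of spots without a gene name in their channel, which is called above background here.

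The members' own spots differed in quality. Above background in all 48 channels were 17 members. *MRP2* was above background in 1 channel, *RSM22* in 18 and *MRP17* in 24, so ratios of these genes near 0 say little. *RSM10*, *RSM24*, *MRP1* and *MRP13* were above background in 36 channels and in none of the *med16Δ*, *med31Δ* and *cycCΔ* arrays. Only spots with flag 1 were used. This removed *PET123* on 20 arrays, *YMR31* on 19 and *MRP13* on 18, which leaves 28 or 29 members with a ratio on both arrays in each comparison.

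In untreated cells most of the small-subunit genes gave more signal in *med20Δ* than in wild type. The median log2 ratio over 28 members was 0.22 (0.19 and 0.30 on the separate arrays) against -0.01 over 5714 ORFs. On both arrays 21 members were higher in *med20Δ* and 3 were lower, where 32.9% of all ORFs were higher and 32.2% were lower. None reached 2-fold, which 0.245% of ORFs did on the high side, and 5 reached 1.5-fold, which 2.31% of ORFs did. On the low side no member reached 1.5-fold (4.18% of ORFs) or 2-fold (0.683%). With local background subtraction the median was 0.36 with 3 members past 2-fold, and with the authors' ratios 0.36 with 2. The shares of ORFs given here were not taken with these settings.

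The 3 highest members in untreated cells were *MRP51*, *RSM7* and *EHD3*. *MRP51*, whose product acts in translation of mitochondrial messages at their leaders, gave log2 ratios of 0.56 and 1.29 (mean 0.93). *RSM7*, the relative of bacterial S7 in the head of the subunit, gave 0.76 and 1.00 (0.88). *EHD3*, which encodes 3-hydroxyisobutyryl-CoA hydrolase of valine breakdown, gave 0.53 and 0.87 (0.70). The arrays of *MRP51* lay further apart than those of the other two, and all 6 values were above 0. Those lower on both arrays were *RSM28* at -0.17 (-0.11 and -0.22) and the dim spots of *MRP17* and *RSM22*.

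**Figure D1:**
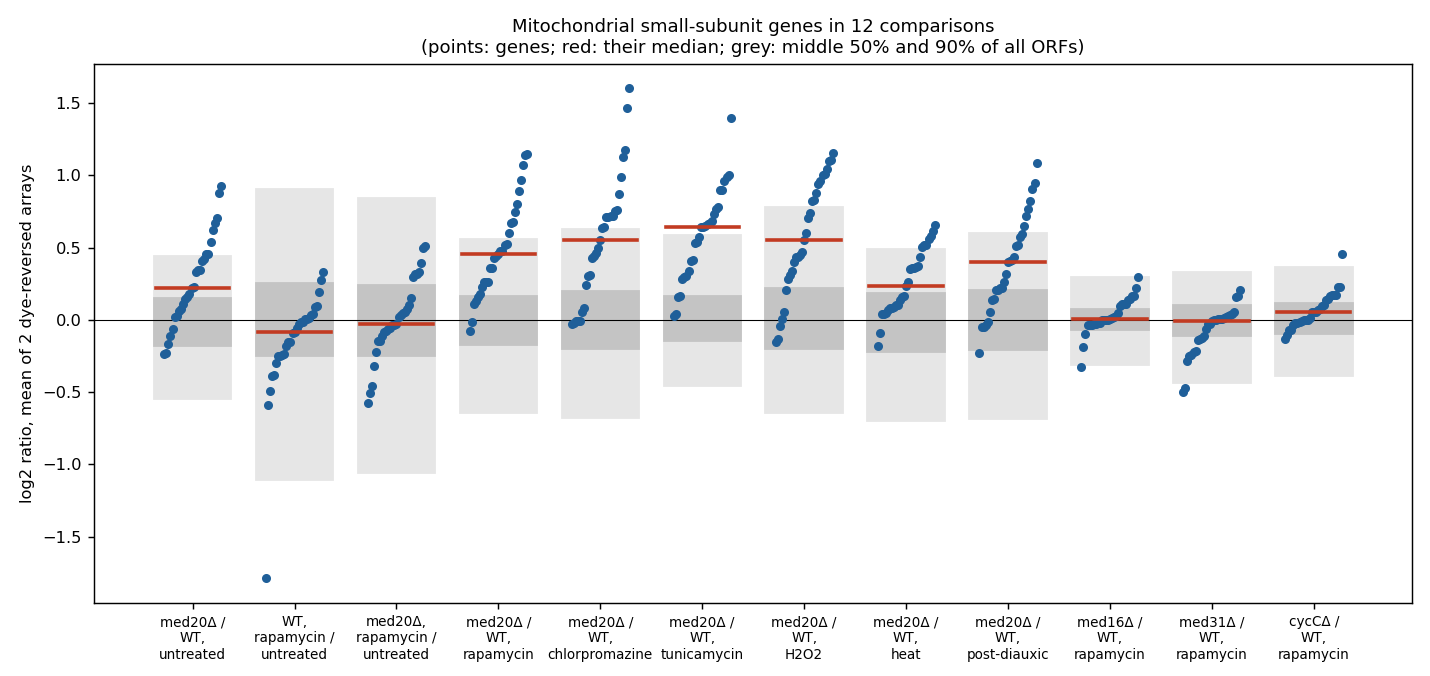
Each point is the mean log2 ratio of 1 small-subunit gene over the 2 dye-reversed arrays of a comparison (vertical axis; comparisons on the horizontal axis). The red line is the members' median, and the grey boxes hold the middle 50% and 90% of all ORFs. The members' median lies above 0 in all 7 comparisons of *med20Δ* with wild type, from 0.22 to 0.64, and between -0.08 and 0.05 in the other 5.

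Rapamycin itself moved few of these genes in the wild-type strain. The median over 29 members was -0.08 (-0.08 and -0.15), with 17 lower and 5 higher on both arrays, where 39.3% and 38.6% of all ORFs were. *RSM27* was the only member that fell 2-fold or more, a fall that 6.2% of ORFs showed. At 1.5-fold *RSM26* joined it, against 12.1% of ORFs, and no member rose 1.5-fold or 2-fold, which 10.8% and 3.94% of ORFs did. The median of the 128 cytoplasmic ribosomal protein (RP) genes measured was -3.09 on the same arrays.

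Among the bacterial-type members in wild type, *MRPS17* was lowest at -0.38 (-0.50 and -0.26). It was followed by *MRPS8* at -0.30 (-0.27 and -0.32), *MRPS12* at -0.25 (-0.23 and -0.27), *MRPS9* at -0.25 (-0.32 and -0.19), *MRPS28* at -0.24 (-0.33 and -0.16) and *MRP4* at -0.24 (-0.21 and -0.27). *MRP21* at -0.15 and *RSM18* at -0.06 were below 0 on both arrays too. *MRP51* was highest at 0.33 (0.46 and 0.19), and *MRPS16* was at 0.09. The others, *RSM7*, *RSM10*, *RSM19*, *MRPS5*, *MRPS18* and *NAM9*, had means between -0.03 and 0.02. All of these are under 1.5-fold.

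The mitochondria-specific members were lower in wild type after rapamycin in 7 of the 9 measured. *RSM26* gave -0.56 and -0.62 (mean -0.59), *MRP10* -0.42 and -0.57 (-0.50) and *MRPS35* -0.52 and -0.26 (-0.39). *RSM24* was at -0.18, *RSM25* at -0.15 and *RSM23* at -0.09. *MRP1* was above 0 on both arrays with a mean of 0.19 (0.02 and 0.37), and *RSM28* was at 0.03 with arrays on either side of 0. *EHD3* was higher on both arrays at 0.28 (0.31 and 0.24).

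In *med20Δ* the response was centered on 0, with a median of -0.03 (-0.05 and 0.03), 8 members higher and 11 lower on both arrays where 36.8% and 37% of all ORFs were. None was past 1.5-fold in either direction, while 9.74% of ORFs were higher and 12.2% lower by that much, and 3.19% and 5.57% by 2-fold. Members higher on both arrays were *MRPS18* at 0.51 (0.49 and 0.54), *RSM19* at 0.50 (0.44 and 0.56), *RSM10* at 0.39 (0.53 and 0.26), *RSM18* at 0.33 (0.24 and 0.43), *MRPS12* at 0.32 (0.35 and 0.28), *MRP51* at 0.32, *MRPS16* at 0.29 and *MRP10* at 0.10. At the low end were *RSM26* at -0.58 (-0.42 and -0.74), *RSM27* at -0.51 (-0.78 and -0.24), *RSM28* at -0.46 (-0.16 and -0.75), *RSM23* at -0.32 and *MRPS28* at -0.22. The remaining members had means between -0.15 and 0.15. They were *MRPS5*, *MRPS8*, *MRPS9*, *MRPS17*, *MRP4*, *MRP21*, *RSM7*, *RSM24*, *RSM25*, *MRPS35*, *MRP1*, *NAM9* and *EHD3*, beside the dim *MRP2*, *MRP17* and *RSM22*.

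Set side by side, the arrays of the strains did not overlap for 17 of 29 members. In 13 of them both *med20Δ* arrays were above both wild-type arrays, a pattern that 25.3% of all ORFs showed, and in 4 (*MRP17*, *RSM23*, *EHD3* and *RSM28*) they were below, as were 23.5% of ORFs. The difference of the responses, *med20Δ* minus wild type, was 1.28 for *RSM27*, 0.60 for *MRP10*, 0.57 for *MRPS12*, 0.54 for *MRPS18* and 0.52 for *RSM19*. For *RSM26* the difference was 0.01. The median difference over the members was 0.09, and over all ORFs it was 0.00.

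**Figure D2:**
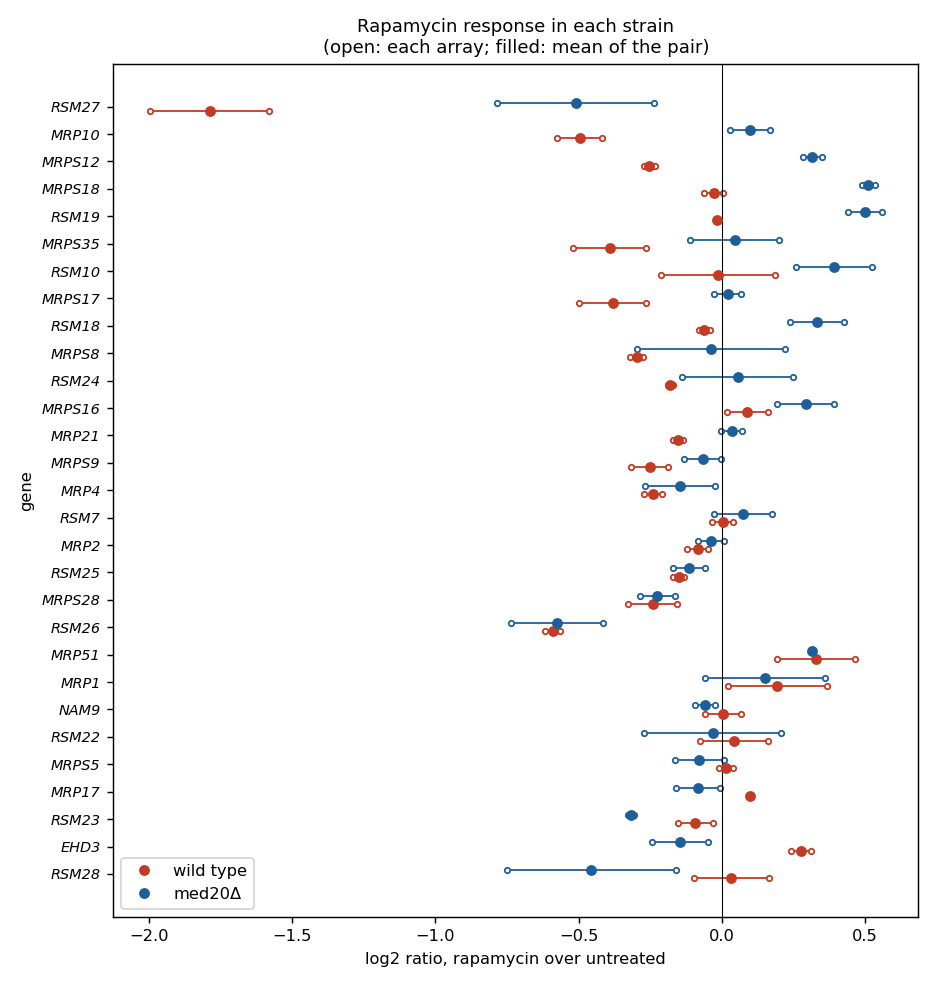
Log2 ratio of rapamycin-treated over untreated cells (horizontal axis) for the 29 members measured in both strains, with wild type in red and *med20Δ* in blue. Open points are the 2 arrays, filled points their mean, and genes are ordered by the difference between strains. *RSM27* stands alone at -1.79 in wild type. *MRP10*, *MRPS12*, *RSM18* and *RSM19* are below 0 on both wild-type arrays and above 0 on both *med20Δ* arrays. In wild type *RSM18* (-0.06) and *RSM19* (-0.02) are close to 0. The share of all ORFs with this pattern was not counted.

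The direct comparison of the strains after rapamycin gave a median of 0.46 (0.34 and 0.61) over 29 members against 0.00 over all ORFs. In *med20Δ* 25 members were higher on both arrays and 1 was lower, where 33.1% of ORFs were in either direction. At 2-fold there were 3 members higher (7 on the second array alone, 7 with local background subtraction and 6 by the authors' ratios), against 2.11% of ORFs, and at 1.5-fold 10, against 4.73%. In every comparison the share of ORFs past a fold is that of pair means with the normexp and loess processing described below. It is not given for local background subtraction or the authors' ratios. It was not counted for 1 array alone. None was lower by 2-fold, as 1.81% of ORFs were, or by 1.5-fold, as 6.07% were.

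The 3 past 2-fold were *RSM27* (0.91 and 1.37, mean 1.14, 2.21-fold), *RSM19* (0.96 and 1.32, mean 1.14, 2.20-fold) and *MRPS12* (0.88 and 1.27, mean 1.07, 2.10-fold). *RSM19* encodes the relative of bacterial S19 and *MRPS12* that of S12, a protein of the decoding center. These adjacent genes lie on the same strand, *RSM19* upstream. On each of the 3 the second array gave the larger ratio, and none was past 2-fold on the first array alone.

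Other bacterial-type members in the direct comparison were *RSM7* at 0.89 (0.67 and 1.11), *RSM10* at 0.80 (0.45 and 1.16), *MRP51* at 0.74 (0.34 and 1.15), *RSM18* at 0.68 (0.46 and 0.89), *MRPS9* at 0.67 (0.54 and 0.80) and *MRPS28* at 0.60 (0.37 and 0.83). *MRPS8*, *MRPS17*, *MRPS18*, *MRPS16*, *MRP21*, *MRP4* and *MRPS5* followed between 0.36 and 0.53, all above 0 on both arrays. The dim *MRP17* was the 1 member lower on both arrays, at -0.08. *NAM9*, the S4 relative first known as a nuclear suppressor of mitochondrial mutations, was at 0.11 with arrays on either side of 0.

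The mitochondria-specific members were led, after *RSM27*, by *MRP10* at 0.97 (0.65 and 1.28), a twin-cysteine protein. *MRPS35* was at 0.48, *RSM24* at 0.36, and *RSM25*, *RSM26* and *MRP1* at 0.26 each. *RSM23* was at 0.22 and *RSM28* at 0.18 (0.46 and -0.11). *EHD3* was at 0.15 (0.17 and 0.14), well under its untreated ratio of 0.70. The median was 0.52 over the 18 bacterial-type members and 0.26 over the 9 mitochondria-specific ones.

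The 4 comparisons of this experiment close a loop. Adding the *med20Δ* response to the untreated ratio and subtracting the wild-type response gives a derived ratio for the treated strains, with a median of 0.36 over 28 members, against 0.45 measured directly on the same members. The derived ratio was above 0 for 24 of the 28, and for 2844 of 5647 ORFs. Over all ORFs the median was 0.01 derived and 0.00 direct. Derived minus direct had an SD of 0.25 over the members and 0.41 over all ORFs. It was largest for *RSM28* (-0.83), *MRPS28* (-0.64) and *MRPS8* (-0.50). This difference sums the errors of 4 ratios, and which of them carries it was not examined.

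*RSM27* was the exception among the members in its rapamycin response. It encodes a mitochondria-specific protein and lies directly downstream of *RPS0A*, on the same strand in the R64 annotation. *RPS0A* encodes a cytoplasmic 40S protein and gave -3.52 and -3.74 in wild type, where *RSM27* gave -1.58 and -2.00. In *med20Δ* *RPS0A* gave -1.93 and -1.39 and *RSM27* -0.78 and -0.24. In the direct comparison *RPS0A* was at 1.93, above *RSM27* at 1.14. The member thus went in the direction of its neighbor in all 3, with the smaller size each time.

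Between strains under other conditions, both were above 0 on both arrays untreated (*RPS0A* at 0.50 and *RSM27* at 0.14), with tunicamycin (1.55 and 0.64) and with chlorpromazine (0.61 and 0.72). Post-diauxic they were at -0.09 and 0.58, with heat at -0.02 and 0.14, and in *med16Δ* at 0.52 and -0.03. With hydrogen peroxide *RSM27* gave 0.39 and -0.71 on its arrays and *RPS0A* -0.26 and -0.87. Whether the spotted *RSM27* sequence also captures transcripts of *RPS0A* was not tested. Of the other members beside a cytoplasmic RP gene, *RSM22* next to *RPS27A* was too dim to read on the arrays of the rapamycin experiment. *MRP13*, downstream of *RPL11B*, was flagged on them. With the flagged spots kept *MRP13* was at -0.22 in wild type, while *RPL11B* was at -3.13. *MRP4* overlaps YHL005C on the other strand, whose transcripts were not told apart here. Without *RSM27* the median of the direct comparison was 0.45.

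**Figure D3:**
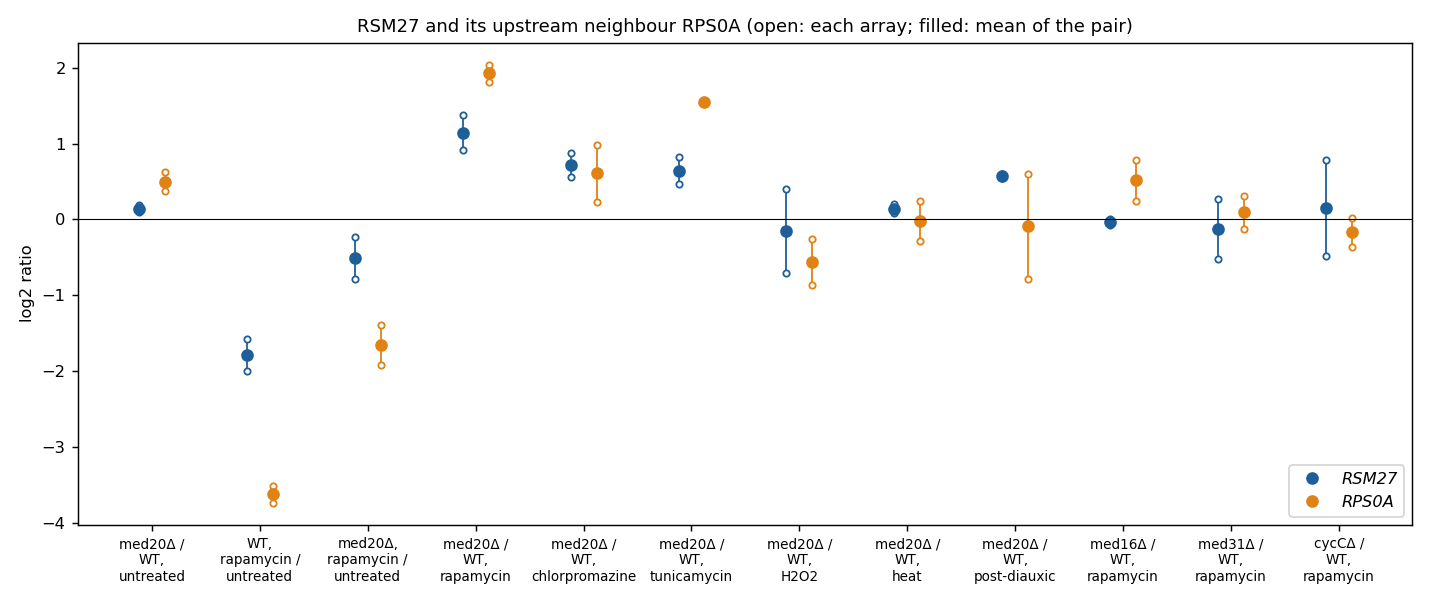
Log2 ratios (vertical axis) of *RSM27* and of *RPS0A*, the cytoplasmic RP gene upstream of it, in the 12 comparisons (horizontal axis). Open points are single arrays and filled points their mean. In wild type after rapamycin *RPS0A* is at -3.63 and *RSM27* at -1.79, and with tunicamycin they are at 1.55 and 0.64.

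Chlorpromazine gave the members their widest spread between strains. The median was 0.55 (0.69 and 0.53), and 21 of 29 members were higher and 0 lower in *med20Δ* on both arrays, against 29.3% and 30.5% of ORFs. Past 2-fold were 4 members (7 on the first array alone), against 1.14% of ORFs, and past 1.5-fold 14, against 5.81%. No member was that much lower, while 2.16% of ORFs were 2-fold and 6.71% 1.5-fold lower. *MRP51* gave 1.20 and 2.01 (3.04-fold), *MRPS9* 1.34 and 1.59 (2.76-fold), *RSM10* 1.08 and 1.27 (2.25-fold) and *RSM19* 1.04 and 1.22. All 4 are bacterial-type, and all 8 of their array values were past 2-fold. *MRP10* at -0.01, *RSM24* at -0.03 and *MRPS8* at -0.01 were near 0.

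With tunicamycin, which blocks N-glycosylation, all 28 measured members were higher on both arrays, where 33.8% of all ORFs were higher and 34.2% lower. The median was 0.64 (0.67 and 0.56), with 2 members past 2-fold (1.86% of ORFs; 6 on the first array alone and 5 with local background subtraction or the authors' ratios) and 15 past 1.5-fold (5.08%), and none lower by 2-fold (0.743%) or 1.5-fold (2.99%). *MRPS9*, the S9 relative, gave 1.44 and 1.35 (2.63-fold). *MRPS12* gave 1.06 and 0.94, and *RSM10* 0.82 and 1.15. The lowest members were *MRP17* at 0.03 and *RSM22* at 0.04, then *MRP10* and *MRPS8* at 0.16 each.

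With hydrogen peroxide the median was 0.55 (0.70 and 0.48). On both arrays 23 of 29 members were higher and 1, the dim *RSM22*, was lower, where 31.5% and 29.6% of ORFs were. Past 2-fold were 6 members (2.83% of ORFs), and 12 on the first array alone, where the share of ORFs was not counted. Past 1.5-fold were 14 (8.34%), with none lower by 2-fold (1.54%) or 1.5-fold (6.16%). *MRPS35* gave 1.30 and 1.01, *RSM23* 0.68 and 1.53, *RSM10* 1.16 and 1.04, *MRPS9* 1.13 and 0.96, *EHD3* 1.25 and 0.77, and *MRP10* 1.77 and 0.24. The arrays of *MRP10* were far apart, and its mean of 1.00 rests on the first. *MRPS16* gave 1.09 and -1.08, which cancel in its mean of 0.01. The pair differed more here than in the other comparisons, with an SD between arrays of 0.42 over all ORFs.

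The shift to 39°C gave the smallest median of the 6 treatments, 0.23 (0.23 and 0.20). On both arrays 20 of 29 members were higher and 0 lower, against 32.7% and 31.2% of ORFs. None was past 2-fold, which 0.823% of ORFs were on the high side, and 2 were past 1.5-fold (3.15% of ORFs), *RSM19* (0.62 and 0.70) and *MRP51* (0.50 and 0.73). *RSM10* gave 0.43 and 0.72. None was lower by 2-fold (2.01%) or 1.5-fold (7.37%).

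In post-diauxic cells, which respire, the median was 0.40 (0.33 and 0.35), with 17 of 29 members higher and 3 lower on both arrays, against 28.1% and 27.9% of ORFs. *RSM19* was past 2-fold (1.23 and 0.94), as 0.892% of ORFs were (5 members were on the first array alone), and 8 members were past 1.5-fold (5.46%), with none lower by 2-fold (1.98%) or 1.5-fold (6.77%). *MRP10* gave 0.96 and 0.92 and *MRPS12* 1.10 and 0.70. The 3 lower ones were *RSM22*, *NAM9* at -0.05 and *MRP2*. Of the 5 members past 2-fold on the first array, *MRPS16* (1.69 and -0.25) and *MRP21* (1.03 and -0.22) were below 0 on the second. *MRPS16* is also 1 of the 8 past 1.5-fold. Its arrays lay far apart with chlorpromazine (1.06 and -0.06) and tunicamycin (1.29 and 0.07) too.

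Over the 7 conditions in which *med20Δ* was set against wild type, 27 members had a ratio on all 14 arrays. Of these, 9 were above 0 on all 14, where 2% of 5488 ORFs were, and 17 were higher on both arrays in 6 or 7 conditions, where 5.63% were. None was below 0 on all 14, as 1.59% of ORFs were. The untreated and rapamycin values may share RNA, so these conditions are not independent.

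The 9 were *RSM19*, *MRPS12*, *RSM10*, *RSM7*, *MRPS35*, *MRPS9*, *EHD3*, *RSM18* and *RSM25*. *RSM19* was never under 0.62 and never over 1.14. *MRPS12* ran from 0.46 with no treatment to 1.07 with rapamycin, and *RSM10* from 0.41 to 1.17. *RSM25* was steady and low, from 0.22 to 0.45. *MRP51*, with the highest single ratio, missed the list through 1 post-diauxic array (-0.11). By role the 9 are 6 of 16 bacterial-type, 2 of 9 mitochondria-specific and 1 of 2 other members.

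Members went different ways from condition to condition. *MRP10* was between 0.94 and 1.00 with rapamycin, with hydrogen peroxide and in post-diauxic cells but at -0.01 with chlorpromazine. *RSM23* was at 1.10 with hydrogen peroxide and at most 0.41 elsewhere. *MRP1* was highest with chlorpromazine (0.87) and at 0.07 with heat. *MRPS8* was at -0.24 untreated, with arrays of 0.06 and -0.53, and at 0.77 in post-diauxic cells. *NAM9* was below the members' median in every condition, between -0.05 and 0.57.

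**Figure D4:**
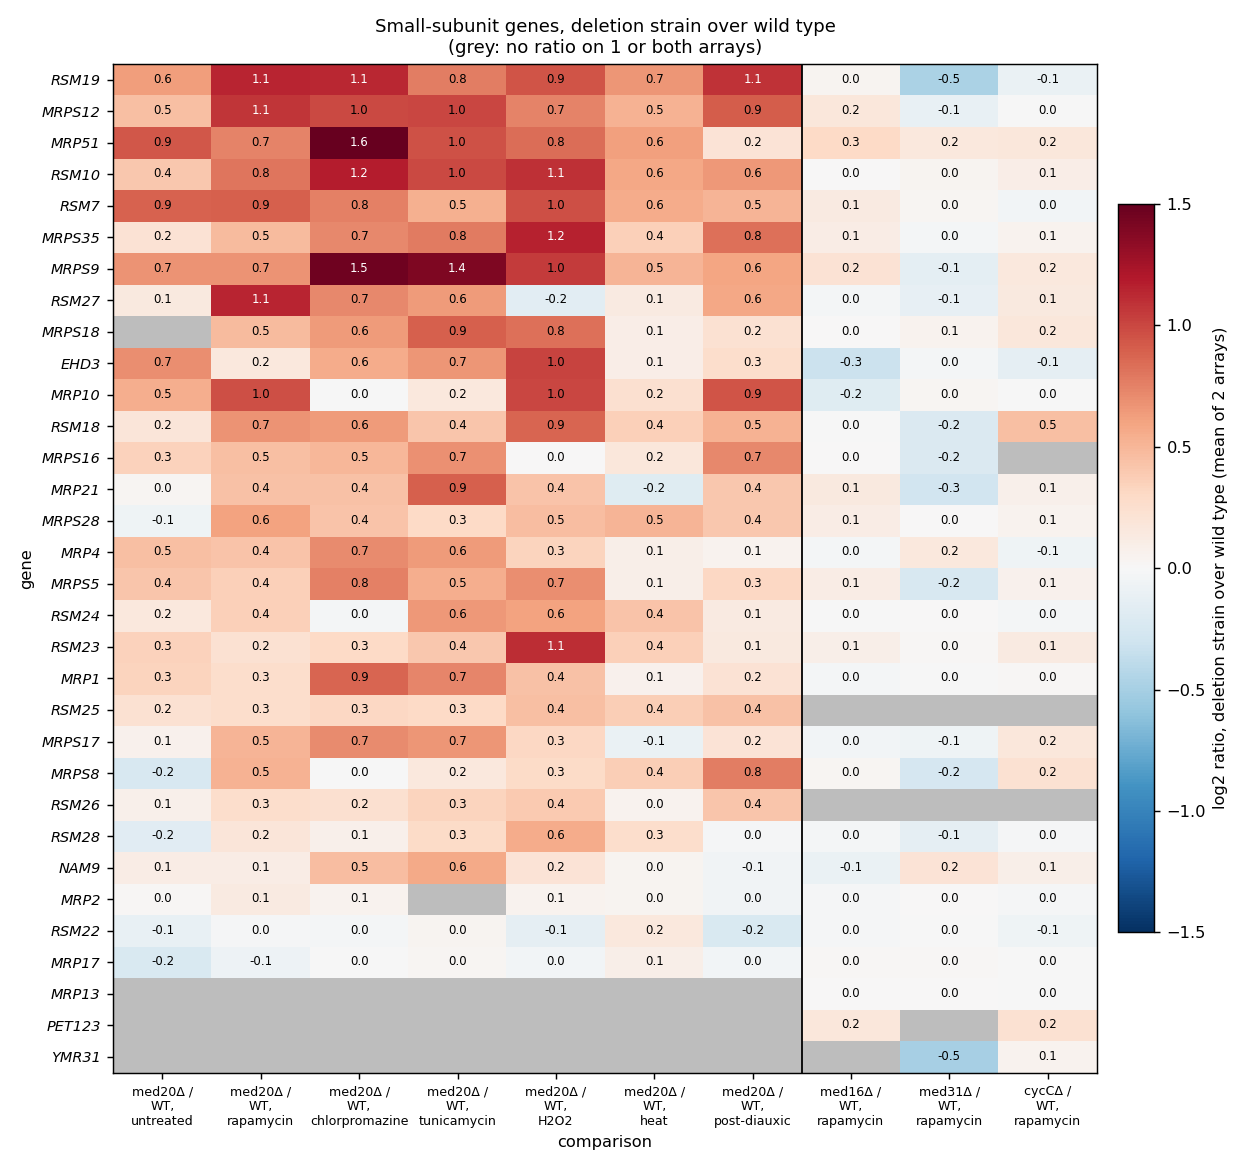
Mean log2 ratio of the deletion strain over wild type for the 32 members (vertical axis, ordered by the median over the 7 *med20Δ* comparisons) in 10 comparisons (horizontal axis). Red is higher and blue lower in the deletion strain, and grey cells lack a ratio on 1 or both arrays. *RSM19* and *MRPS12* head the order, and the right-hand block of *med16Δ*, *med31Δ* and *cycCΔ* holds no mean past 1.5-fold.

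With the flagged spots kept, the 3 members missing from these comparisons could be read with reserve. *MRP13* was between 0.38 and 0.97 over the 7 conditions and *PET123*, needed for mitochondrial translation, between 0.22 and 0.98. *YMR31* was between -0.99 and 0.24. Its product, now also named Kgd4, is a subunit of the α-ketoglutarate dehydrogenase complex and was later separated from the ribosome.

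Deletion of the other subunits gave the members medians close to 0 after rapamycin. Over all ORFs the 2 arrays of a pair correlated at only 0.25 in *med16Δ*, 0.24 in *med31Δ* and 0.23 in *cycCΔ*. For *med16Δ* the median was 0.01 over 29 members, with 9 higher and 4 lower on both arrays (26% of ORFs in either direction). *MRP51* was highest at 0.29 (0.40 and 0.19), followed by *MRPS9* at 0.22 and *PET123* at 0.17, and those lower on both arrays included *NAM9* at -0.10, *MRPS17* at -0.04 and the dim *MRP1* at -0.03. For *med31Δ* the median was -0.01, with 5 higher and 1 lower on both arrays (26.5% of ORFs in either direction). Its arrays stood apart, at medians of 0.08 and -0.17, and 23 of 29 members had opposite signs on them, as did 2789 of 5929 ORFs. *MRP21* was lower on both (-0.21 and -0.35), and *NAM9* (0.04 and 0.36), *MRP51* (0.12 and 0.21) and *MRP4* (0.17 and 0.15) were the highest of those above 0 on both.

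For *cycCΔ* the median was 0.05 (0.11 and -0.05), with 7 higher and 1 lower on both arrays, against 27.1% and 26.8% of ORFs. Opposite signs on the 2 arrays were seen for 21 of 29 members and for 2660 of 5773 ORFs. *RSM18* was highest at 0.45 (0.79 and 0.12), followed by *MRPS8* at 0.23 and *MRP51* at 0.17, and *MRP4* was lower on both arrays at -0.07. No member was past 1.5-fold in these 3 comparisons, where 1.18%, 0.877% and 1.84% of ORFs were on the high side and 1.08%, 2.66% and 1.8% on the low side (past 2-fold, 0.135%, 0.101% and 0.398% were higher and 0.101%, 0.742% and 0.243% lower). On these arrays 20 to 25 of the 32 members were above background in a channel, against 29 to 32 on the others. Among spots above background in all 4 channels of a comparison the medians were 0.07 over 20 members in *med16Δ*, -0.12 over 20 in *med31Δ* and 0.07 over 18 in *cycCΔ*. The *med20Δ* median after rapamycin, computed in this way, was 0.48 over 26 members. Among such spots in *med16Δ*, 9 of 20 members were higher and 1 lower on both arrays, where 1347 and 1268 of 4632 ORFs were. In *med31Δ* 3 of 20 were higher and 1 lower (1219 and 1262 of 4402 ORFs). In *cycCΔ* 4 of 18 were higher and 1 lower (997 and 1045 of 3623 ORFs). The difference between *med20Δ* and the other strains was not tested, nor was the part in it of spots below background.

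The other genes of mitochondrial translation were counted from lists of the large subunit, of translation and assembly factors, and of mitochondrial aminoacyl-tRNA synthetases. The large subunit was above 0 in the same 7 conditions. Its medians were 0.37 in untreated *med20Δ* (against 0.22 for the members), 0.55 with rapamycin, 0.67 with chlorpromazine, 0.59 with tunicamycin, 0.58 with hydrogen peroxide, 0.28 with heat and 0.50 post-diauxic, and 17 of its 41 genes with complete data were above 0 on all 14 arrays. After rapamycin 39 of 42 were higher on both arrays, led by *MNP1* at 1.53 and *MRPL39* at 1.21.

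The factors and synthetases had smaller medians than the members in 6 of the 7 conditions for the synthetases, which were at 0.31 with heat against 0.23, and in all 7 for the factors, whose 0.23 with heat was within 0.01 of the members'. For the translation and assembly factors they ran from 0.05 to 0.27 over the 7 conditions, with 4 of 32 above 0 on all 14 arrays. *RRF1*, the ribosome recycling factor, at 0.90 and *TUF1*, the elongation factor Tu, at 0.78 led after rapamycin. For the synthetases the medians ran from 0.13 to 0.45, with 4 of 12 above 0 on all 14 arrays, and *MSK1*, for lysine, led after rapamycin at 0.62.

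Cytoplasmic RP genes had medians close to the members' in some conditions and not in others. In *med20Δ* relative to wild type their median was 0.13 untreated, 0.58 with chlorpromazine and 0.48 post-diauxic, where the members were at 0.22, 0.55 and 0.40. It was 1.42 with rapamycin and 1.20 with tunicamycin, above the members' 0.46 and 0.64. With hydrogen peroxide it was -0.28 (0.17 and -0.88) and with heat -0.06 (0.12 and -0.28), where the members were at 0.55 and 0.23. In *med16Δ* it was 0.44, and 109 of 129 RP genes were higher on both arrays. No RP gene of 124 was above 0 on all 14 arrays. These differences between lists are descriptions with no test.

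**Figure D5:**
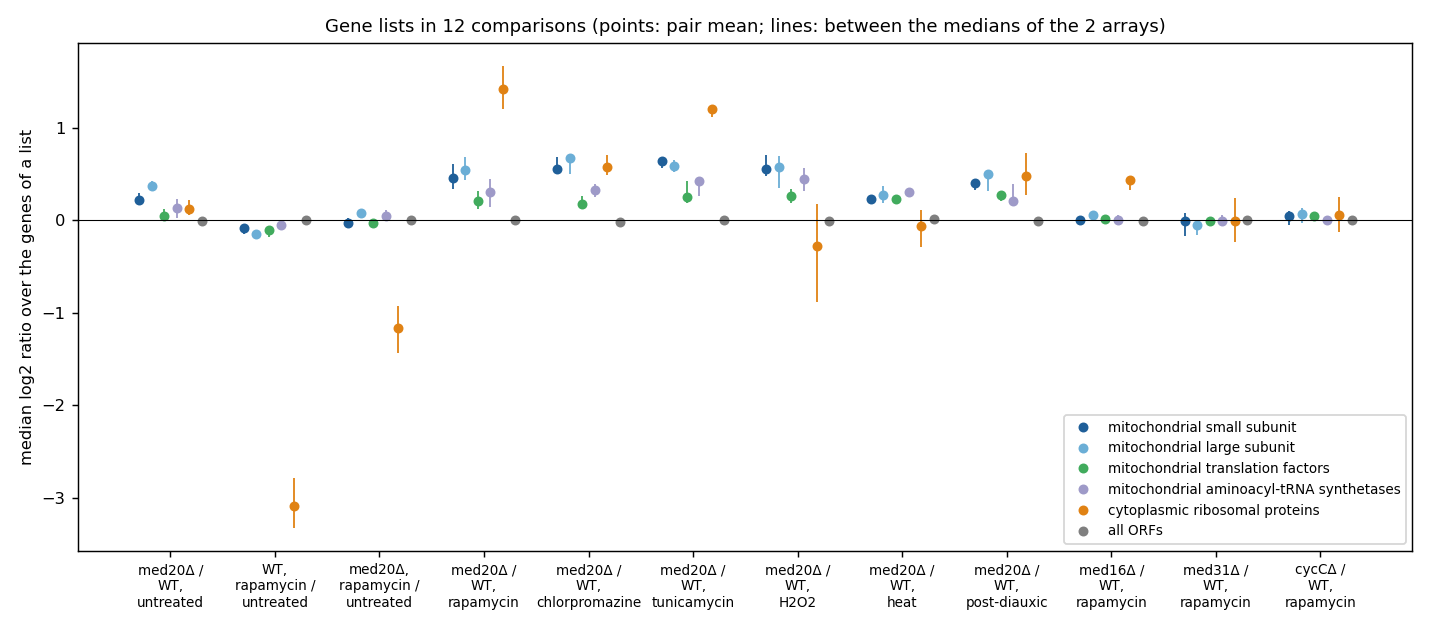
Median log2 ratio over the genes of 5 lists and over all ORFs (vertical axis) in the 12 comparisons (horizontal axis). Points are medians of the pair means, and lines run between the medians of the 2 arrays. The medians of the mitochondrial small and large subunits lie within 0.15 of each other in every *med20Δ* comparison, while the cytoplasmic RP genes run from -3.09 in wild type with rapamycin to 1.42 between the strains.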

How the data were processed

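The authors hybridized dye-reversed pairs and deposited, for each array, foreground and local background intensity in both channels, raw log10 ratios and normalized log10 ratios. The scanner, the image software and the meaning of the flag column are not given in the sources used here. The deposited series table equals the normalized log10 column.

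Each array has 6912 spots, of which 576 are controls and were not used. A normexp background correction (offset 50) draws ratios of dim spots toward 0. A loess fit (span 0.3) on unflagged ORF spots then normalized each array, with limma 3.58.1 in R 4.3.3, and ratios were turned so that the deletion strain or the treated culture is the numerator. Normalization sets the median of all ORFs near 0, so ratios are relative to the other mRNAs. Tables were made with pandas 2.3.3 and numpy 2.4.6 and plots with matplotlib 3.10.9, under Python 3.11.15. The normalization was also run on simulated data. The limits set for passing were loose, so that run does not show that the size of a ratio is kept.

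All members are accounted for. In each comparison the 3 largest rises and falls on the same side of 0 on both arrays were named, and for other lists at most their 3 largest. The members and lists were chosen with earlier results of these data known. Alternatives were no background correction, local subtraction, median centring, loess without the ribosomal genes, the authors' ratios, a filter on the dimmest 25% of ORFs, flagged spots kept, either array alone, 1.5-fold, 2-fold on both arrays and limma with arrays as replicates. Added after the values were seen were a filter on spots below background, leaving out *RSM27*, and the recount of members higher on both arrays. Promoter motifs were not searched, since no sequence was used here. The number of arrays, 2 per comparison, limits the precision.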

Additional observations from a re-analysis of the deposited data

Results flagged for a closer look

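Some members gave opposite signs on all arrays of 2 groups under the same contrast, among spots above background in all channels. These differences were not tested.

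In the rapamycin response 4 members were below 0 on both wild-type arrays and above 0 on both *med20Δ* arrays. The share of all ORFs with this pattern was not counted. *MRP10* was at -0.50 and 0.10, *MRPS12* at -0.25 and 0.32, *RSM18* at -0.060 and 0.33, and *RSM19* at -0.018 and 0.50. *EHD3* went the other way, from 0.28 in wild type to -0.14 in *med20Δ*. In wild type *RSM19* (-0.014 and -0.021) and *RSM18* (-0.078 and -0.042) were close to 0. The SD between those arrays was 0.22 over all ORFs.

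Between strains, *NAM9* was at -0.050 in post-diauxic cells and on the other side of 0 untreated (0.11), with chlorpromazine (0.46), tunicamycin (0.57), hydrogen peroxide (0.20) and heat (0.041). *RSM28* was at -0.17 untreated and above 0 with chlorpromazine (0.079), tunicamycin (0.28) and hydrogen peroxide (0.55). *RSM22*, dim on most arrays, was at 0.041 with tunicamycin and -0.23 in post-diauxic cells.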

How the results depend on the processing

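Among the largest rises and falls named, no value past 1.5-fold changed sign. They were chosen for the same sign on both arrays, so single arrays could not change it. *MRPS16* post-diauxic, not among them, had a mean of 0.72 from arrays of 1.69 and -0.25. Medians near 0 (the *med20Δ* response, *med16Δ*, *med31Δ* and *cycCΔ*) lay on either side of 0 between settings or arrays. The count of members above 0 on all 14 *med20Δ* arrays was 8 to 13 over the alternatives tried, against 9. With local background subtracted the median was 0.36 untreated, -0.19 in wild type with rapamycin, 0.68 between strains with rapamycin, 0.69 with chlorpromazine, 0.15 in *med16Δ* and -0.13 in *med31Δ*, and the members past 2-fold were 3 untreated, 2 in wild type, 7 with rapamycin, 5 with tunicamycin, 2 post-diauxic and 1 in *cycCΔ*. The authors' ratios gave medians of 0.36 untreated, 0.68 with rapamycin, 0.13 in *med16Δ* and -0.13 in *med31Δ*, and counts of 2 untreated, 6 with rapamycin, 5 with tunicamycin and 1 in *cycCΔ*. Without background correction 1 member was past 2-fold untreated, and with median centring 3 were post-diauxic. The untreated median was 0.33 without the dimmest 25% of ORFs and also without spots below background, which put *med31Δ* at -0.12. Causes were not tested.

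Past 1.5-fold were 5 members untreated, 2 in wild type with rapamycin, 10 between strains with rapamycin, 14 with chlorpromazine, 15 with tunicamycin, 14 with hydrogen peroxide, 2 with heat and 8 post-diauxic. Past 2-fold on both arrays were 0 members with rapamycin (87 of 5747 ORFs were higher) and 1 with tunicamycin (83 of 5653). With hydrogen peroxide 2 were (101 of 5732), and post-diauxic 0 (19 of 5716). On 1 array alone the count was 0 to 1 untreated, 0 to 7 with rapamycin, 4 to 7 with chlorpromazine, 3 to 6 with tunicamycin, 5 to 12 with hydrogen peroxide, 1 to 5 post-diauxic, 0 to 1 in *med16Δ*, 1 to 3 in *med31Δ* and 1 to 1 in *cycCΔ*. The median on 1 array was 0.34 to 0.61 with rapamycin, 0.53 to 0.69 with chlorpromazine, 0.48 to 0.70 with hydrogen peroxide and -0.17 to 0.077 in *med31Δ*. Shares of ORFs past 2-fold were not counted for 1 array. They are not given for local background subtraction, no background correction, median centring or the authors' ratios.

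In each comparison the replicate numbers differ in dye orientation, and no label ties them to a shared culture or batch. Replicate 1 had the numerator in Cy5 in the rapamycin responses of both strains and in Cy3 in the other comparisons. The replicate number, and the block made from it below, thus mixes dye orientations. A dye effect was not tested. Deviations of same-numbered arrays correlated between -0.55 and 0.81 over 66 pairs of comparisons. In limma, with each array taken as a replicate (adjusted p under 0.05; 24 members among 4986 genes), the calls without the replicate block were 4 untreated, 10 with rapamycin, 13 with chlorpromazine, 10 with tunicamycin, 13 with hydrogen peroxide, 5 with heat and 8 post-diauxic, against 3.79%, 11%, 14.1%, 6.34%, 18.9%, 11.2% and 14.7% of all genes, and with the replicate block 4, 11, 14, 12, 15, 6 and 8, against 4.33%, 12.0%, 15.3%, 7.46%, 20.2%, 12.5% and 16.5%. Without the block 1 member was called in the wild-type response to rapamycin and 0 in the *med20Δ* response, against 29.2% and 27.1% of all genes. In *med16Δ*, *med31Δ* and *cycCΔ* 0 members were called, against 0.642%, 2.87% and 2.47%. With the block these member counts were the same. The fits take dye-reversed arrays as independent, so their p-values may measure technical spread only.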
